A study of Mus musculus with 24 samples.

Results

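Akt-RACVECs were compared with RACVECs, endothelial-like cells of the mouse that were transduced with the same set of Ets factors but not with Akt. The comparison used 6 of the 24 RNA libraries of the study, 3 of Akt-RACVECs and 3 of RACVECs, chosen by their group labels. RACVECs were made from amniotic cells (MACs) of mid-gestation C57BL/6J embryos by lentiviral transduction of mouse Etv2, Erg and Fli1 and growth in endothelial medium with heparin, an inhibitor of Tgf-beta receptors (SB431542) and, during conversion, VEGF-A. Akt-RACVECs additionally received mouse Akt with a myristoyl tag, which holds the kinase at the membrane and keeps it active. Per the methods, both groups thus received the 3 Ets vectors, whose inserts and that of Akt are driven by the promoter of phosphoglycerate kinase, which is active in most cell types. The methods describe replicates as separate isolations of cells from embryos of both sexes. This holds for the starting cells, and whether a library is still an average over embryos after conversion and growth was not tested. The Y-linked genes examined below were listed at 0 in RACVEC 2 and in every Akt-RACVEC, so that these libraries do not show a mix of sexes. In bulk RNA, fewer cells of a type and less RNA per cell cannot be told apart.

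Akt is a serine and threonine kinase that acts downstream of phosphoinositide 3-kinase. It is activated in endothelial cells by Vegf and angiopoietin receptors, supports survival and metabolism, and phosphorylates Foxo transcription factors, which then leave the nucleus. Etv2, Erg and Fli1 are Ets factors that bind a GGAA core in the enhancers of most endothelial genes, where they act with Gata2, Tal1 and SoxF proteins. The question put to this comparison was which genes differ when constant Akt activity is added to cells transduced with the Ets factors.

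The unit was FPKM, fragments per kilobase of transcript scaled to the size of the library, summed over the transcripts of each gene, and 13351 genes with a mean of at least 1 over the 6 libraries were tested with limma on log2(FPKM + 1). A log2 fold change understates the change of genes of low FPKM on this scale. Numbers of reads are not used here, so that the depth behind a value is unknown and 0 means only that a gene is listed at 0. The summed FPKM lay between 1689486 and 2072167 per library, and 12356 to 13852 genes were above 0, the lowest number in Akt-RACVEC 3. Pearson correlations of log2(FPKM + 1) across genes were 0.875 to 0.918 among the RACVECs and 0.815 to 0.887 among the Akt-RACVECs. The header of RACVEC 3 names a GFP-positive fraction at day 65, those of the other RACVECs do not, and the Akt-RACVECs are headed by single letters, so that any difference of batch and that of the groups cannot be told apart. The 4 Y-linked genes examined had a summed FPKM of 162 in RACVEC 1, 0 in RACVEC 2 and 54.9 in RACVEC 3, and were listed at 0 in every Akt-RACVEC. Xist, expressed from the inactive X chromosome, was at 174, 220 and 191 in the RACVECs and at 26.9, 0.85 and 0 in the Akt-RACVECs. The groups did not overlap in Xist, which was not called (adjusted p = 0.256), and the part of sex-linked RNA in the results was not tested.

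Of the genes tested, 72 (0.539%) were called higher in Akt-RACVECs and 15 (0.112%) lower, with a Benjamini-Hochberg adjusted p under 0.05 and a difference beyond 1 or -1 on the log2 scale. In each of the 87 called genes the libraries of the groups did not overlap, which was also the case for 1577 genes (11.8%) in the higher and 1343 (10.1%) in the lower direction among all genes tested. A nominal, that is unadjusted, p under 0.05 together with a fold past these limits was reached by 728 genes (5.45%) in the higher and 782 (5.86%) in the lower direction, so that a majority of calls was higher whereas the number of nominal differences was similar in both directions. The median log2 fold change of all genes was -0.0054, and 6622 were above 0. Of the calls, 6 higher genes were listed at 0 in every RACVEC and 3 lower genes at 0 in every Akt-RACVEC, and for these no fold is given. The counts changed when a single library was left out, which also makes a group smaller. Genes called higher numbered 5, 63 and 7 without RACVEC 1, 2 and 3, and 36, 7 and 31 without Akt-RACVEC 1, 2 and 3. Genes called lower numbered 1, 41 and 3 without RACVEC 1, 2 and 3, and 33, 1 and 2 without Akt-RACVEC 1, 2 and 3. Pecam1, Gimap1 and Crp were called in all 6 of these fits, whereas 21 of the higher and 3 of the lower genes were called in none of them.

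**Figure D1:**
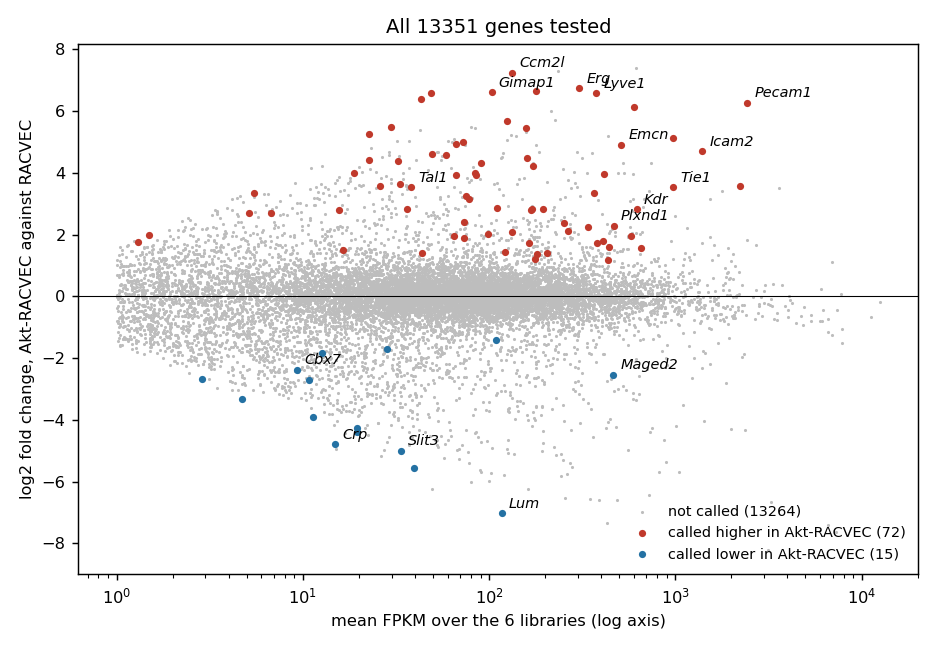
Log2 fold change of Akt-RACVECs against RACVECs (vertical axis) against the mean FPKM over the 6 libraries (horizontal log axis) for the 13351 genes tested. Grey points were not called, red points are the 72 genes called higher and blue points the 15 called lower, which include Lum at -7.03 and Maged2 at -2.54.

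The 4 transduced genes were examined first. The inserts are mouse sequences, and a value per RefSeq transcript does not separate reads of the vector from reads of the gene. Akt1 had an FPKM of 607, 694 and 644 in the RACVECs and of 1281, 872 and 920 in the Akt-RACVECs. All Akt-RACVECs were above all RACVECs, and the difference of 0.64 on the log2 scale did not pass (SE, the standard error, 0.23, adjusted p = 0.160). Sox17-RACVECs, which did not receive Akt, had Akt1 at 884, 1323 and 916, so that this level does not by itself distinguish cells with the Akt vector. Erg, on mm9 chr16:95580776-95808200, had an FPKM of 3.91, 13.8 and 0.90 in the RACVECs and of 395, 1002 and 418 in the Akt-RACVECs. It rose by a log2 fold change of 6.73 (SE 1.31, adjusted p = 0.0326), the second largest among the genes called higher. No RACVEC was above 13.8, so that the Erg values do not show an expressed Erg insert in the libraries labelled RACVEC, and whether the vector was present was not tested. Etv2 was at 860, 301 and 659 in the RACVECs and at 127, 572 and 289 in the Akt-RACVECs, groups that overlapped. Fli1 was at 178, 229 and 257 against 268, 352 and 328. The log2 fold changes of Etv2 and Fli1 were -1.003 (SE 1.41) and 0.52 (SE 0.73), with an adjusted p of 0.748 for each.

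Among 32 endothelial transcription factors, 30 were tested, 25 had a log2 fold change above 0, 4 were called higher and 0 lower, and 11 reached a nominal p under 0.05 in the higher direction and 0 in the lower. Counts at a nominal p, here and for the lists that follow, are of genes beyond the same limits of fold. The median log2 fold change of the factors was 0.92, with 2 of them listed at 0 in every RACVEC. The called factors were Lyl1, Sox17, Zfp366 and Tal1. Lyl1 and Tal1 are related basic helix-loop-helix proteins of blood and endothelial precursors. Lyl1 was listed at 0 in every RACVEC and at 107, 62.1 and 124 in the Akt-RACVECs (adjusted p = 0.0314). Tal1 was at 5.50, 2.71 and 8.77 in the RACVECs and at 67.1, 68.3 and 75.8 in the Akt-RACVECs, a log2 fold change of 3.53 (SE 0.71, adjusted p = 0.0365). The Akt-RACVECs were close to each other in Tal1 and well above every RACVEC. Sox17, a SoxF factor of arterial endothelium on mm9 chr1:4481009-4486494, was listed at 0 in every RACVEC and at 12.01, 83.5 and 82.2 in the Akt-RACVECs (adjusted p = 0.0389), with Akt-RACVEC 1 the lowest. Zfp366, a zinc finger protein, was at 0, 0.42 and 0 against 21.8, 60.4 and 54.1, a log2 fold change of 5.24 (SE 1.03, adjusted p = 0.0326). Ets2, a further Ets factor, was at 56.8, 70.9 and 114 against 715, 881 and 477 and just missed the threshold, with a log2 fold change of 3.10 (SE 0.76, adjusted p = 0.0559); it was named after its value was seen. Promoter sequences are shown for Erg, Lyl1 and Emcn, called genes whose 250 bases before the transcription start held a searched motif, and capitals mark that motif. They are read 5' to 3' on the strand of the gene and come from RefSeq on GRCm38.p6, chr16:95459349-95459598 (minus strand) for Erg, chr8:84701207-84701456 (plus strand) for Lyl1 and chr3:137340828-137341077 (plus strand) for Emcn.
Erg: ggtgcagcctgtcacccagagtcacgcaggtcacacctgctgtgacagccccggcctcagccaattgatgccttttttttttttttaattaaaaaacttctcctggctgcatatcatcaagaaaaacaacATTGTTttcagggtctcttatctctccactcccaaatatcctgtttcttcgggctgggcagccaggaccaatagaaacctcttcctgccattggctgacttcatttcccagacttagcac
Lyl1: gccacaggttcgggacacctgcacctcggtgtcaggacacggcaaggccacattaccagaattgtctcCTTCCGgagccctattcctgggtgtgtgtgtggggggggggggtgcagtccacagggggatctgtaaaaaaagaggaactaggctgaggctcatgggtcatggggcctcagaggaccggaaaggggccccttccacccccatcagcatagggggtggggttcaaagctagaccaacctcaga
Emcn: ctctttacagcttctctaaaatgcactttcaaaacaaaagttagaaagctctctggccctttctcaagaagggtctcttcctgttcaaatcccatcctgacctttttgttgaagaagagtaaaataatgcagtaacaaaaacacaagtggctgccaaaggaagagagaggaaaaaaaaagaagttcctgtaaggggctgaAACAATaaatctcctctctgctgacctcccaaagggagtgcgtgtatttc
The capitals are ATTGTT, the Sox letters AACAAT on the opposite strand, in Erg, CTTCCG, the Ets letters CGGAAG on the opposite strand, in Lyl1, and AACAAT in Emcn. RefSeq gives Erg 3 starts, of which 1 held a motif, and the files do not tell which was used. The windows of Tal1, Kdr and Crp held none of the motifs and are not printed.

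Promoters were available for 51 of the 72 genes called higher, for 10 of the 15 called lower and for 10341 of all genes tested. The Ets letters CGGAAG stood on either strand of the 250 bases in 12 of the 51 (23.5%), against 28.2% of the genes tested. The Sox letters AACAAT stood in 6 of the 51 (11.8%), against 6.4%, and the Fox letters GTAAACA in 1 (2.0%), against 2.8%. Among the 10 genes called lower, 1 held the Ets letters and 0 the others. Letters of the Sox and Fox motifs can overlap, and these shares describe a short window without a test. Over all 27025 genes with a promoter in RefSeq, tested or not, the shares were 15.3% for the Ets, 10.9% for the Sox and 3.5% for the Fox letters.

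All 43 genes of the list of endothelial junction and surface genes were tested, and 10 were called higher and 0 lower. At a nominal p under 0.05 these numbers were 24 and 2, 35 genes were above 0, and the median log2 fold change was 1.80. Pecam1, the adhesion molecule CD31 on mm9 chr11:106515531-106611942, had an FPKM of 84.1, 155 and 15.3 in the RACVECs and of 3649, 6524 and 4132 in the Akt-RACVECs. It rose by 6.26 on the log2 scale (SE 0.94, adjusted p = 0.00870), and the lowest Akt-RACVEC was far above the highest RACVEC. Esam, an immunoglobulin protein of endothelial tight junctions, was at 210, 188 and 2.36 against 1694, 1679 and 2049, a log2 fold change of 5.14 (SE 1.09, adjusted p = 0.0453). RACVEC 3 stood apart from the other RACVECs in this gene, while the Akt-RACVECs were alike. Emcn, the sialomucin endomucin of capillaries and veins, was at 149, 18.2 and 9.27 against 723, 805 and 1373, a log2 fold change of 4.91 (SE 1.00, adjusted p = 0.0389). Icam2 was at 46.0, 268 and 76.2 against 1890, 2642 and 3446, with 4.70 on the log2 scale (SE 1.00, adjusted p = 0.0453). Further calls of the list included Stab1, Stab2, Procr, She and Sox17. The list is thus not confined to junction and surface proteins, and Sox17 was also counted among the transcription factors above.

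Cdh5, the adherens junction protein VE-cadherin, was at 863, 1531 and 1887 in the RACVECs and at 2413, 3887 and 2008 in the Akt-RACVECs. Its log2 fold change was 0.97 (SE 0.48, adjusted p = 0.2998), so that of the usual surface pair of endothelial cells, Pecam1 was called and Cdh5 was not. Jam2 and Nos3 had the largest log2 fold changes of the list, 7.39 (SE 2.10, adjusted p = 0.0912) and 7.30 (SE 1.71, adjusted p = 0.0544), and were not called. Jam2 was at 1315, 90.3 and 2280 and Nos3 at 898, 62.3 and 444 in the Akt-RACVECs, lowest in Akt-RACVEC 2 in both genes. Icam1 and Vcam1, which bind leukocytes on activated endothelium, lay in the other direction, with log2 fold changes of -4.27 (SE 1.63, adjusted p = 0.186) and -2.86 (SE 1.21, adjusted p = 0.225). Cdh5, Jam2, Nos3, Icam1 and Vcam1 were named after their values were seen.

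**Figure D2:**
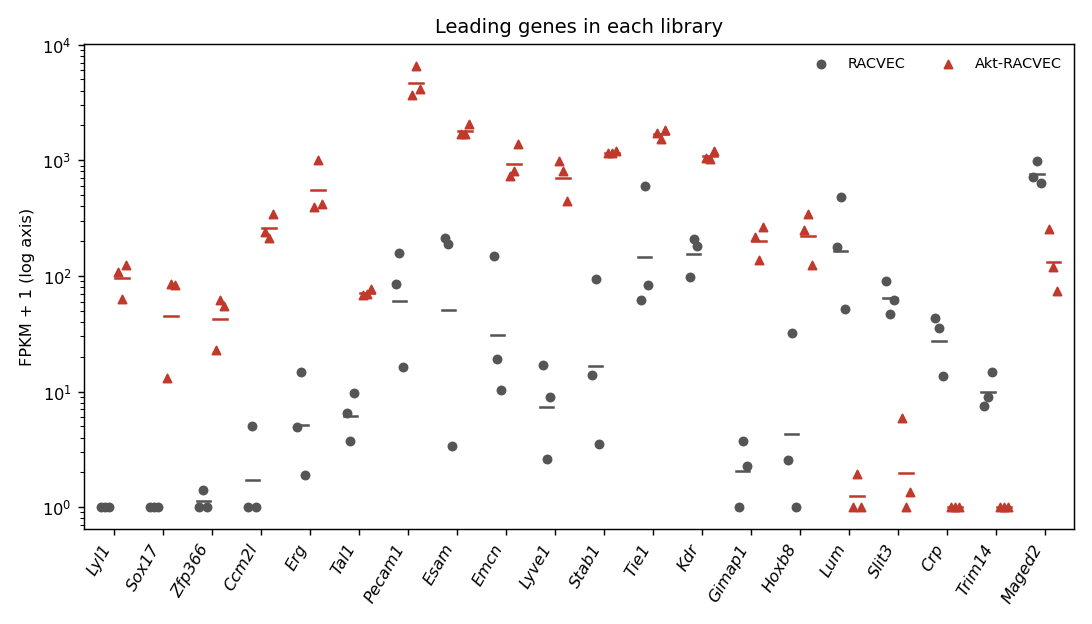
FPKM + 1 on a log axis of 20 genes in the 3 RACVECs (grey circles) and the 3 Akt-RACVECs (red triangles), with a line at the mean of the log values of each group. In all of these genes the groups are apart, with Pecam1 between 3649 and 6524 FPKM in the Akt-RACVECs and at most 155 in the RACVECs, and Crp and Trim14 at 0 in every Akt-RACVEC.

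Stab1 and Stab2 are scavenger receptors of sinusoidal endothelium. Stab1 was at 12.8, 92.3 and 2.50 in the RACVECs and at 1143, 1148 and 1203 in the Akt-RACVECs, a log2 fold change of 6.14 (SE 1.397, adjusted p = 0.0489). Stab2 was listed at 0 in every RACVEC and at 64.8, 70.9 and 1.09 in the Akt-RACVECs (adjusted p = 0.0489), so that Akt-RACVEC 3 was close to the RACVECs. It was named after its value was seen. Lyve1, a hyaluronan receptor of lymphatic and sinusoidal endothelium, was at 15.97, 1.62 and 7.97 against 978, 810 and 440, a log2 fold change of 6.58 (SE 1.14, adjusted p = 0.0222). Of the other lymphatic genes tested, Prox1, the factor that defines lymphatic endothelium, stayed at or below 3.76 in every library and Flt4, the receptor of Vegf-C, had a log2 fold change of 0.79 (SE 1.06, adjusted p = 0.733). Mmrn1 was at 0.43, 0.39 and 2.34 against 14.2, 8.54 and 182, without overlap (log2 fold change 3.99, SE 1.59, adjusted p = 0.202). Pdpn lay in the other direction, with a log2 fold change of -4.20 (SE 2.03, adjusted p = 0.288), and its groups overlapped. Lyve1 was the only call among the 5 lymphatic genes tested.

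Of 18 ligands and receptors of the Vegf and angiopoietin families that were tested, 3 were called higher and 0 lower, with a median log2 fold change of 0.81. All 3 act at the endothelial surface. Kdr, the main Vegf receptor on mm9 chr5:76328852-76374483, was at 97.1, 206 and 179 in the RACVECs and at 1034, 1016 and 1198 in the Akt-RACVECs, a log2 fold change of 2.81 (SE 0.62, adjusted p = 0.0486). Tie1 was at 60.8, 602 and 82.5 against 1716, 1530 and 1830, a log2 fold change of 3.53 (SE 0.74, adjusted p = 0.0449), with RACVEC 2 well above the other RACVECs. Ptprb, the phosphatase that opposes Tie2, was at 7.08, 17.9 and 18.4 against 157, 189 and 643, with 4.23 on the log2 scale (SE 0.96, adjusted p = 0.0489). Tek, which encodes Tie2 itself, was at 12.5, 17.1 and 27.9 against 208, 240 and 416 and was not called (log2 fold change 3.85, SE 1.01, adjusted p = 0.0706). Kdr lies on chromosome 5, whose median was above those of the RACVECs in Akt-RACVEC 1 and 2 but not in Akt-RACVEC 3, as given below.

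Ccm2l, a partner of the Ccm complex that controls endothelial junctions and heart development, had the largest fold of all calls. It was at 0, 4.04 and 0 in the RACVECs and at 240, 212 and 339 in the Akt-RACVECs, a log2 fold change of 7.24 (SE 1.15, adjusted p = 0.0147). Rasip1, which is needed for vascular lumens, was also called, with 35.98, 214 and 11.8 against 611, 923 and 679 and a log2 fold change of 3.96 (SE 0.88, adjusted p = 0.0486). Of 42 semaphorin, plexin, ephrin and Robo genes tested, 1 was called higher and 1 lower, and 23 were below 0. Plxnd1, the endothelial receptor of semaphorin 3E, was at 231, 171 and 96.0 against 755, 886 and 667, a log2 fold change of 2.29 (SE 0.50, adjusted p = 0.0486). Slit3, a secreted ligand of Robo receptors, was at 89.4, 46.2 and 60.3 against 4.86, 0 and 0.35 and fell by 5.004 on the log2 scale (SE 1.12, adjusted p = 0.0486). Ephb4, the Eph receptor of veins, and Efna5 had log2 fold changes of 2.77 and -2.40 and did not pass (adjusted p = 0.0559 for each). Rasip1 was named after its value was seen.

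Gimap genes encode small GTPases best known from lymphocytes and stand side by side on chromosome 6. Of the 6 tested, 4 were called higher and 0 lower; they were grouped after their values were seen. Gimap1, on mm9 chr6:48668606-48702599, was at 0, 2.73 and 1.29 in the RACVECs and at 217, 135 and 263 in the Akt-RACVECs, a log2 fold change of 6.602 (SE 0.89, adjusted p = 0.00418). Gimap9 was at 3.87, 1.53 and 3.41 against 160, 51.8 and 214, with 5.01 on the log2 scale (SE 1.11, adjusted p = 0.0486). Gimap8 and Gimap5, named after their values were seen, had log2 fold changes of 4.57 (SE 0.69, adjusted p = 0.00870) and 3.24 (SE 0.69, adjusted p = 0.0453). Gimap4 and Gimap6 had 1.97 (SE 1.04, adjusted p = 0.323) and 1.28 (SE 0.51, adjusted p = 0.202) and were not called. The annotated spans of Gimap1 and Gimap5 overlap in mm9, and reads of neighbouring members may not be separated with certainty.

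Hox genes record the position of cells along the body axis. Of 32 tested, 1 was called higher and 0 lower, and at a nominal p under 0.05 the counts were 14 and 1. Of the 32, 20 were above 0 and the median was 0.74, which includes 1 gene listed at 0 in every RACVEC and 6 listed at 0 in every Akt-RACVEC. Hoxb8, on mm9 chr11:96143219-96146639, was at 1.55, 30.9 and 0 in the RACVECs and at 248, 342 and 123 in the Akt-RACVECs, a log2 fold change of 5.66 (SE 1.29, adjusted p = 0.0489). Hoxb4, Hoxb6 and Hoxb7 had log2 fold changes of 3.89, 4.55 and 5.30, with adjusted p of 0.0549, 0.0563 and 0.0559, and were not called. In Hoxb7 the RACVECs were at 4.18, 76.2 and 0 and the Akt-RACVECs at 280, 284 and 306, so that the RACVECs themselves spread widely, with RACVEC 2 the highest. RACVEC 2 was also the highest RACVEC in Hoxb4 and Hoxb6. All 8 HoxB genes tested were above 0, between 3.52 and 5.66 on the log2 scale, while all 6 HoxC genes tested were below 0. All 7 HoxD genes tested were above 0, between 0.52 and 5.10, with 5 at a nominal p under 0.05, and of 11 HoxA genes 5 were above and 6 below 0. Of the HoxC genes, Hoxc8 was at 14.4, 67.1 and 0 in the RACVECs, was listed at 0 in every Akt-RACVEC and was not called (adjusted p = 0.238). The split by cluster and Hoxc8 were named after their values were seen.

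Further calls among the 15 largest were less well known genes. Tmem252, a membrane protein, was at 2.17, 10.9 and 0 against 210, 440 and 410, a log2 fold change of 6.65 (SE 1.30, adjusted p = 0.0326). Ushbp1 was at 1.89, 13.7 and 6.20 against 327, 176 and 424, with 5.43 (SE 1.08, adjusted p = 0.0337). Dipk2b was listed at 0 in every RACVEC and at 54.4, 98.7 and 105 in the Akt-RACVECs (adjusted p = 0.0453). The smallest called increases were in genes of general functions, among them Tmem184b at 1.19 and Tubg1, a gamma-tubulin, at 1.21 on the log2 scale (adjusted p = 0.0315 and 0.0486). Tubg1 and its neighbour Tubg2 (1.397) are near-identical copies, so that the values of either are uncertain. Tmem184b and both tubulins were named after their values were seen, and 2 of the 72 calls were transcripts without a current symbol.

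The text of the study names 10 genes for this comparison, Pecam1, Tal1, Sox17, Emcn, Kdr, Shank3, Mef2c, Col18a1, Hhex and Elk3. They were chosen on these samples and are no independent evidence of a direction. In each of them every Akt-RACVEC was above every RACVEC, 6 were called, and 9 had a nominal p under 0.05 past a log2 fold change of 1. Shank3, a scaffold protein, was at 27.3, 26.8 and 79.3 against 207, 432 and 249, a log2 fold change of 2.83 (SE 0.64, adjusted p = 0.0489). Mef2c, a MADS box factor, was at 6.80, 19.7 and 8.15 against 123, 124 and 77.9 and narrowly missed the threshold (log2 fold change 3.23, SE 0.77, adjusted p = 0.0544). Col18a1, Hhex and Elk3 had log2 fold changes of 2.91, 2.13 and 0.99, with adjusted p of 0.153, 0.203 and 0.338.

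The 15 genes called lower did not form a list of endothelial genes. Lum, the small leucine-rich proteoglycan lumican of fibrillar matrix on mm9 chr10:97028135-97035337, was at 175, 476 and 51.1 in the RACVECs and at 0, 0.95 and 0 in the Akt-RACVECs. It fell by 7.03 on the log2 scale (SE 1.22, adjusted p = 0.0222), the largest among the genes called lower. Crp, the pentraxin C-reactive protein on mm9 chr1:174628187-174630097, was at 41.8, 34.8 and 12.7 in the RACVECs and was listed at 0 in every Akt-RACVEC (adjusted p = 0.000926), the smallest adjusted p of the comparison. Maged2, of the melanoma antigen family on the X chromosome, was at 710, 991 and 629 against 253, 119 and 73.0, a log2 fold change of -2.54 (SE 0.57, adjusted p = 0.0489). It was the most abundant of the genes called lower. Cbx7, a Polycomb protein that represses the Ink4a locus, was at 17.7, 9.74 and 20.6 against 5.15, 1.74 and 0.85, with -2.37 on the log2 scale (SE 0.49, adjusted p = 0.0389). Cth, which makes cysteine from cystathionine, was at 45.8, 20.3 and 45.9 against 5.52, 0 and 0, with -4.27 (SE 0.94, adjusted p = 0.0486).

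Ifi207, a member of the interferon-induced p200 family, was at 128, 49.7 and 58.4 in the RACVECs and at 1.64, 0.43 and 0 in the Akt-RACVECs, a log2 fold change of -5.55 (SE 1.23, adjusted p = 0.0486). Its family holds near-identical copies, so that the value is uncertain. Zbp1, a sensor of Z-form nucleic acid, was at 74.4, 26.6 and 15.1 against 0.76, 0 and 0.98, with -4.41 (SE 0.98, adjusted p = 0.0486). Cd80, a ligand that costimulates T cells, was at 15.2, 12.2 and 38.9 against 1.52, 0 and 0, with -3.91 (SE 0.82, adjusted p = 0.0449). Trim14, an adaptor of antiviral signalling, was at 6.44, 8.01 and 13.9 and listed at 0 in every Akt-RACVEC (adjusted p = 0.0314). Rnase10 was likewise at 7.02, 7.0 and 3.2 against 0 in every Akt-RACVEC. The remaining calls, Ibtk, Lacc1, Slc41a3 and Pcdhga5, had log2 fold changes between -2.73 and -1.42, and transcripts of Pcdhga5 share exons with other clustered protocadherins.

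None of the 35 interferon-induced genes on the list was called, but 31 were below 0, 10 had a nominal p under 0.05 in the lower direction and 0 in the higher, and the median log2 fold change was -1.25. The leading member, Oas2, which makes oligoadenylate on sensing double-stranded RNA, was at 36.3, 71.2 and 58.6 in the RACVECs and at 1.48, 0 and 2.48 in the Akt-RACVECs (log2 fold change -4.73, SE 1.13, adjusted p = 0.0548). H2-K1, a class I histocompatibility chain, was at 1064, 2255 and 922 against 251, 232 and 604 (log2 fold change -1.99, SE 0.62, adjusted p = 0.110). Chemokines, cytokines and complement genes had similar counts, with 28 of 32 below 0, 9 nominal differences in the lower and 1 in the higher direction, 0 calls and a median of -1.71, which includes 3 genes listed at 0 in every Akt-RACVEC. Ccl7, a ligand that attracts monocytes, was at 3680, 2040 and 5244 against 700, 316 and 23.0 (log2 fold change -4.28, SE 1.04, adjusted p = 0.0559). Ackr3, a scavenging receptor for Cxcl12, lay in the opposite direction, with a log2 fold change of 3.98 (SE 1.41, adjusted p = 0.157).

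Genes of mesenchymal cells and their matrix had medians among the lowest of all lists. Of 34 genes of fibrillar and interstitial matrix tested, 30 were below 0, 1 (Lum) was called lower and 0 higher, 15 had a nominal p under 0.05 in the lower and 1 in the higher direction, and the median log2 fold change was -3.18. Dcn, the proteoglycan decorin, was at 688, 1637 and 502 in the RACVECs and at 69.3, 7.93 and 0 in the Akt-RACVECs (log2 fold change -6.596, SE 1.56, adjusted p = 0.0544). Fbn1, fibrillin of microfibrils, was at 56.2, 23.9 and 46.6 against 6.10, 0.63 and 0 (log2 fold change -4.17, SE 0.99, adjusted p = 0.0544). Col1a1, a chain of collagen I that was named after its value was seen, was at 1121, 184 and 1254 against 19.2, 1.35 and 0.31 and was not called (log2 fold change -7.33, SE 2.26, adjusted p = 0.109). Within the Akt-RACVECs Dcn and Fbn1 were highest in Akt-RACVEC 1 and listed at 0 in Akt-RACVEC 3. The summed FPKM of the list was 11253 to 18900 in the RACVECs and 2368 to 5972 in the Akt-RACVECs. Of 22 mesenchymal regulators and receptors tested, 20 were below 0, none was called, 12 had a nominal p under 0.05 in the lower and 0 in the higher direction, and the median was -3.72. Fap, a protease of activated fibroblasts, was at 177, 54.6 and 64.7 against 0.54, 0 and 0 (log2 fold change -6.23, SE 1.45, adjusted p = 0.0531). The summed FPKM of this list was 10445, 2368 and 9369 in the RACVECs and 2630, 717 and 218 in the Akt-RACVECs, and RACVEC 2 lay within the range of the Akt-RACVECs.

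Of 18 basement membrane genes tested, none was called, 6 had a nominal p under 0.05 in the higher and 0 in the lower direction, and the summed FPKM was 8168 to 12210 in the RACVECs and 16977 to 21515 in the Akt-RACVECs. The median log2 fold change was -0.13, with 10 genes below 0, so that the sum and the median differed in direction. Col4a1, the most common chain of collagen IV, was at 1296, 761 and 1075 against 2172, 4247 and 4935 (log2 fold change 1.81, SE 0.46, adjusted p = 0.0665). Npnt, the integrin ligand nephronectin, was at 4.87, 7.69 and 1.90 against 172, 28.7 and 158 (log2 fold change 4.14, SE 1.03, adjusted p = 0.0582).

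Markers of other cells were read beside these values. Of the smooth muscle markers, Acta2 was at 1057, 132 and 197 in the RACVECs and at 110, 2.22 and 0.27 in the Akt-RACVECs, and Tagln at 409, 82.4 and 397 against 168, 6.04 and 5.46. Of the mesenchymal markers, Pdgfra was at 271, 4.47 and 85.5 against 6.94, 0.99 and 0, and Thy1 at 1926, 6.87 and 868 against 60.7, 31.3 and 0. RACVEC 1 was the highest in each of these 4 markers, RACVEC 2 the lowest RACVEC, and Akt-RACVEC 3 the lowest library. In Tagln, Pdgfra and Thy1, RACVEC 2 lay below Akt-RACVEC 1, so that the groups overlapped. The same held for the mesenchymal markers Pdgfrb (170, 9.45 and 78.4 against 13.9, 0 and 0) and Prrx1 (888, 8.27 and 490 against 130, 5.96 and 0). In Twist1, a further mesenchymal marker, the groups did not overlap (305, 177 and 205 against 80.3, 117 and 0). The smooth muscle genes summed to 2156 to 5151 against 1196 to 2937. The smooth muscle marker Cnn1 was at 6.37, 0 and 6.02 against 4.52, 0 and 0. Myh11, another one, was at 0.49, 0.15 and 0.51 against 0.54, 0.69 and 0.08. Of 13 smooth muscle genes tested, 10 were below 0 and 3 above, among them Mylk (1.31) and Smtn (1.11). In these 2 genes every Akt-RACVEC was above every RACVEC, and neither was called (adjusted p = 0.192 and 0.145). The part of cells with mesenchymal RNA in the calls was not tested. The epithelial markers Epcam, Cdh1 and Krt8 and the red blood cell markers Hba-a1 and Hbb-bs were listed at 0 in all 6 libraries, as were 8 of 16 epithelial and 7 of 9 red blood cell genes. Krt18 was at 1.46, 2.34 and 11 against 9.68, 0 and 0, and Alas2 reached 1.06 at most. The summed FPKM of the epithelial genes was 132 to 1182 in the RACVECs and 1.09 to 43.2 in the Akt-RACVECs. In the RACVECs most of it came from Krt19 alone, at 285, 129 and 1159. The part of this sum in the calls was not tested. The macrophage markers Ptprc and Adgre1 were above 0 in Akt-RACVEC 1 alone, at 0.34 and 4.49, Csf1r reached 5.49 there, and the summed FPKM of 15 macrophage genes was 174 to 739 in the RACVECs and 19.0 to 321 in the Akt-RACVECs, most of it from Lyz2 and Cd14.

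Genes of the pathway itself were not called. Of 40 genes of PI3K, Akt and mTOR signalling tested, 13 were above 0 and 27 below, 4 had a nominal p under 0.05 past the fold in the higher and 6 in the lower direction, and the median log2 fold change was -0.12. Rptor, the mTORC1 subunit Raptor, was at 41.0, 57.4 and 48.7 in the RACVECs and at 98.9, 113 and 82.4 in the Akt-RACVECs (log2 fold change 0.99, SE 0.23, adjusted p = 0.0544). Irs1, an insulin receptor substrate, was at 7.31, 7.47 and 16.3 against 1.20, 0 and 0 (log2 fold change -3.04, SE 0.82, adjusted p = 0.0792). Igf1 was at 8.67, 0.77 and 0.56 against 82.0, 39.6 and 248 (log2 fold change 4.98, SE 1.42, adjusted p = 0.0910). Of 22 genes known to be activated by Foxo factors, none was called, 14 were below 0 and the median was -0.32. The extremes were Klf2, a shear-responsive factor of endothelium, at 2.60 (SE 0.93, adjusted p = 0.160) and Irs2 at -3.52 (SE 1.28, adjusted p = 0.166) on the log2 scale.

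Of 21 genes known to be activated by Atf4, the factor of the amino acid response, none was called, but 19 were below 0, 11 had a nominal p under 0.05 past the fold in the lower direction and 0 in the higher, and the median log2 fold change was -1.46. Slc7a5, an importer of large neutral amino acids, was at 276, 124 and 375 in the RACVECs and at 49.6, 16.6 and 8.12 in the Akt-RACVECs (log2 fold change -3.55, SE 0.91, adjusted p = 0.0653). Asns, asparagine synthetase, was at 438, 110 and 518 against 109, 46.3 and 47.1 (log2 fold change -2.22, SE 0.61, adjusted p = 0.0820). RACVEC 2 was the lowest of the RACVECs in both genes. Of 33 sterol and fatty acid synthesis genes, 27 were below 0, 7 nominally lower and 1 nominally higher, and the median was -0.59. Fads2, a desaturase of polyunsaturated fatty acids, was at 1252, 1062 and 1650 against 356, 46.2 and 12.7 (log2 fold change -4.40, SE 1.19, adjusted p = 0.0804). Glycolysis genes had a median of -0.37 over 22 genes, with 2 nominally lower and none called.

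Of 40 cell cycle genes tested, 35 were above 0 with a median log2 fold change of 0.31, none was called, and E2f2 had a nominal p under 0.05 past the fold. D cyclins and inhibitors of the cell cycle had 14 of 17 genes below 0, a median of -0.37 and none called. Of 17 Notch pathway genes none was called and the median was 0.22. The ligand Dll1 was at 47.6, 4.91 and 20.5 against 229, 179 and 390 (log2 fold change 3.78, SE 1.32, adjusted p = 0.151), and the receptor Notch3, of mural cells, at 48.0, 9.14 and 20.3 against 3.17, 2.24 and 0 (log2 fold change -3.20, SE 0.97, adjusted p = 0.103). None was called among 42 Bmp and Tgf-beta genes (median -0.58), 17 integrins (0.22), 28 Mmp, Adamts and Timp genes (-1.03), 20 immediate early genes (0.038) and 13 smooth muscle genes (-1.08). The highest of the integrins was Itgb4, the partner of Itga6 in hemidesmosomes, at 3.51, 3.28 and 1.65 against 191, 22.8 and 567 (log2 fold change 5.21, SE 1.49, adjusted p = 0.0919).

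**Figure D3:**
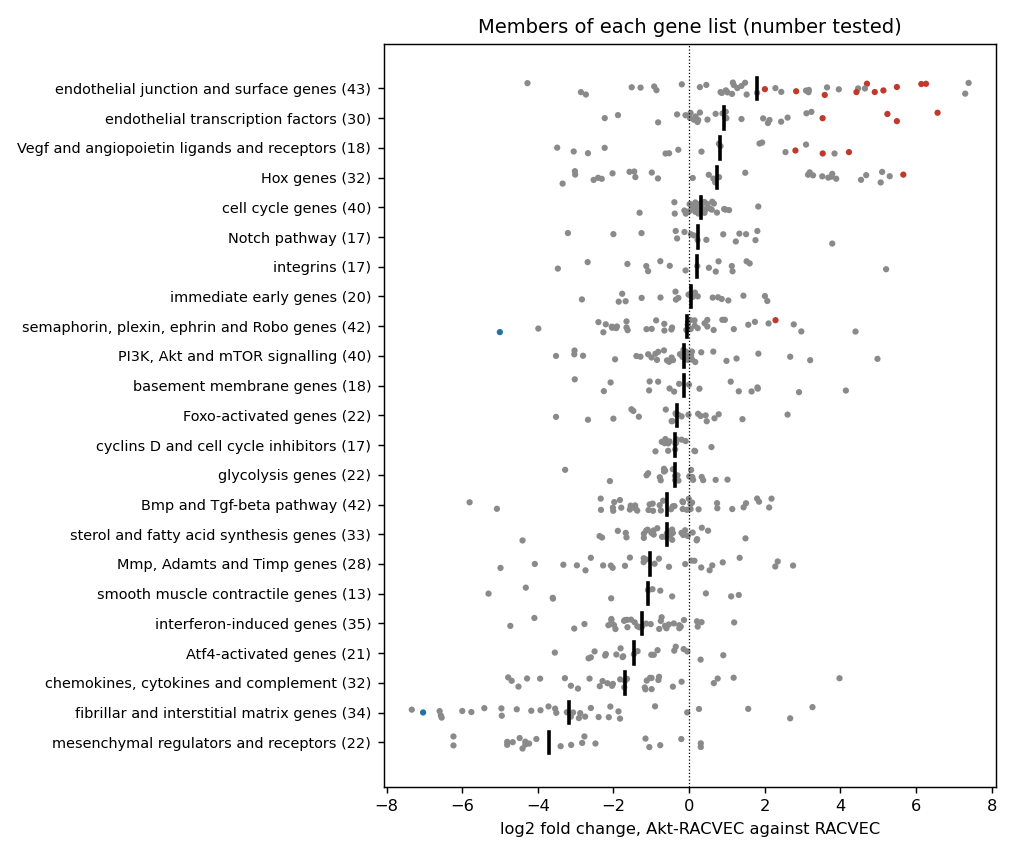
Log2 fold change of Akt-RACVECs against RACVECs (horizontal axis) of the tested members of 23 gene lists, with a black bar at the median of each list and the number of genes tested in brackets. Red points were called higher and blue points lower, the dotted line marks the median of all genes (-0.0054), and the medians run from 1.80 for junction and surface genes to -3.72 for mesenchymal genes.

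The called genes were then followed in the other groups, which are given side by side and share the RACVECs or Akt-RACVECs as reference. The median over the 72 higher genes of the mean FPKM was 5.68 in MACs, 17.9 in RACVECs, 210 in Akt-RACVECs, 138 in Akt-LECs (lung endothelial cells cultured with the same Akt), 149.8 in Akt-liver ECs, 161 in LSECs (endothelial cells purified from liver without culture) and 93.1 in Sox17-RACVECs. The medians of RACVECs and Akt-RACVECs follow from how the genes were chosen. For the 15 lower genes the medians were 37.3 in RACVECs, 1.74 in Akt-RACVECs, 9.42 in Akt-LECs, 40.2 in LSECs and 6.10 in Sox17-RACVECs. The library labelled Sox17-RACVEC 2 stood apart and went against its label, with Etv2 listed at 0 against 458 and 378 in Sox17-RACVEC 1 and 3. Sox17 itself was at 5.09, 40.1 and 200 in Sox17-RACVEC 1, 2 and 3. Sox17-RACVEC 1 was thus below every Akt-RACVEC in Sox17, of which the lowest was at 12.01. Without Sox17-RACVEC 2 the Sox17-RACVEC medians were 48.6 for the higher and 8.46 for the lower genes. Pecam1 was at 586, 5144 and 714 in the Sox17-RACVECs, Erg at 4.49, 387 and 0, and Lyve1 at 11.6, 1363 and 18.7, so that the library labelled Sox17-RACVEC 2 was the highest in each. In Akt-LECs, which had been sorted for CD31 and VE-cadherin, Pecam1 was at 2159 ± 979 and Erg at 348 ± 149 (SD, n = 3). Crp was listed at 0 in every Sox17-RACVEC.

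Akt-MACs received Akt without the Ets factors, and their comparison with MACs shares no library with that of the RACVECs. In Akt-MACs, 96 of the tested genes (0.719%) were called higher and 12 (0.0899%) lower. Of the 72 genes called higher in Akt-RACVECs, 0 were called in Akt-MACs, 48 (66.7%) were above 0 there, 14 below 0 and 10 at exactly 0, with a median log2 fold change of 0.27. Of all genes tested, 57.0% were above 0 in Akt-MACs, with a median of 0.075. At a nominal p under 0.05 past the fold, 12 of the 72 were higher and 1 lower in Akt-MACs by limma. Pecam1 had a log2 fold change of 2.28 in Akt-MACs (adjusted p = 0.318), with a mean of 3.37 in MACs and 18.2 in Akt-MACs. Erg and Gimap1 were listed at 0 in every MAC and Akt-MAC. Emcn had a log2 fold change of -0.90 there (adjusted p = 0.837). Stab1, Lyl1 and Tal1 had log2 fold changes of 4.90, 3.20 and 2.87, and these genes are also known from macrophages. The summed FPKM of 15 macrophage genes was 7.6 to 29.6 in the MACs and 1255, 17084 and 50250 in the Akt-MACs, and its part in the values of Akt-MACs was not tested.

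The difference of both Akt effects was tested itself. With limma, 4 genes (0.03%) were called, each with a lower effect in RACVECs than in MACs, and at a nominal p under 0.05 past the fold 438 were higher and 732 lower. The 4 genes were Trim14, H2bc13, Derl3 and Crp. Trim14 was called in both comparisons and in opposite directions. It was at 3.31, 1.59 and 5.19 in the MACs and at 14.5, 54.3 and 87.5 in the Akt-MACs, a log2 fold change of 3.37 (SE 0.62, adjusted p = 0.0203), and in the same order as the summed macrophage genes. H2bc13, a histone H2B, and Derl3, of the disposal of misfolded proteins, were called higher in Akt-MACs with log2 fold changes of 3.14 and 2.88 (adjusted p = 0.00154 and 0.0244), and in Akt-RACVECs they were not called (adjusted p = 0.320 and 0.117). Crp was listed at 0 in every MAC and Akt-MAC, so that a fall there could not be seen and its difference equals the effect in RACVECs. None of the 72 higher genes was among the 4, so that no difference from Akt-MACs was shown for any of them. The count was 9, 2 and 2 without RACVEC 2, RACVEC 3 and Akt-RACVEC 1, 9, 8 and 11 without MAC 1, 2 and 3, and 108 and 8 without Akt-MAC 1 and Akt-MAC 3. Akt-MAC 1 had the lowest macrophage sum of the Akt-MACs.

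**Figure D4:**
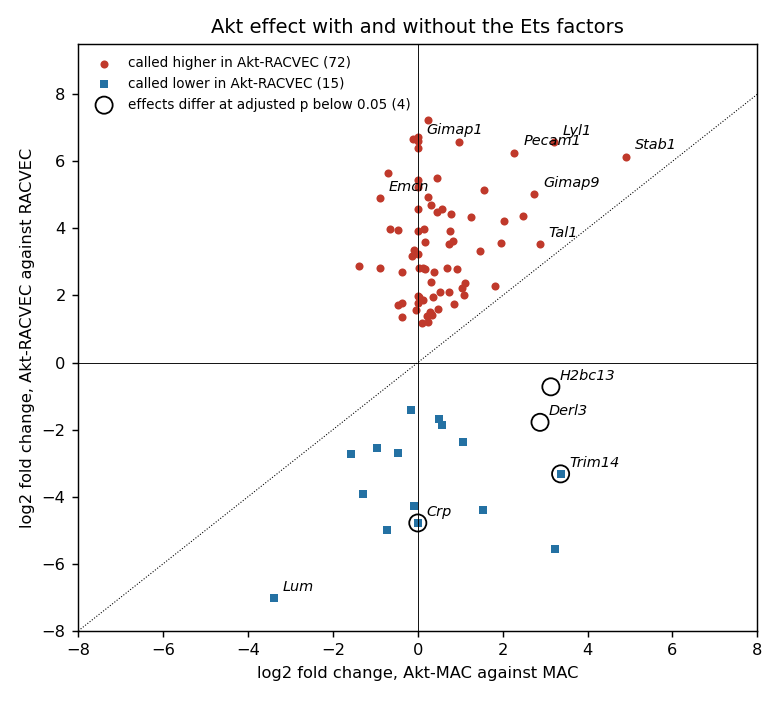
Log2 fold change of Akt-RACVECs against RACVECs (vertical axis) against that of Akt-MACs against MACs (horizontal axis) for the 72 genes called higher (red circles) and the 15 called lower (blue squares) in Akt-RACVECs. Black rings mark the 4 genes called for the difference of effects, and the dotted line marks equal effects. Most called genes lie near 0 on the horizontal axis.

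Genes were also read by chromosome. For 10592 genes that averaged 10 FPKM or more and had a position in mm9, the log2 ratio to the mean of the RACVECs was taken in each library and its median over the genes of a chromosome was set against the median of the library. In Akt-RACVEC 2 the median was 0.69 for chromosome 5, 0.47 for chromosome 15, 0.35 for chromosome 18 and -0.35 for chromosome 17. In Akt-RACVEC 3 it was 0.34 for chromosome 11 and -0.32 for chromosome 9, and in Akt-RACVEC 1 it was 0.26 for chromosome 5. Chromosome 5 was at 0.023 in Akt-RACVEC 3, within the range of the RACVECs (-0.030 to 0.029). Among the RACVECs, RACVEC 3 had -0.46 for chromosome 13 and RACVEC 1 and 3 had 0.27 and -0.26 for chromosome 4. Chromosome 11 was at -0.041, 0.021 and 0.0025 in the RACVECs and at 0.13, 0.21 and 0.34 in the Akt-RACVECs. The X chromosome was at 0.0085, 0.0070 and -0.026 against -0.19, -0.25 and -0.25, where the Xist values of the groups also did not overlap. On chromosomes 3, 6 and 9, too, every Akt-RACVEC was below every RACVEC. The Akt-RACVECs were at -0.092, -0.20 and -0.14 on chromosome 3 and at -0.051, -0.16 and -0.039 on chromosome 6. On chromosome 9 they were at -0.11, -0.17 and -0.32. Of the 72 genes called higher (0.539% of all genes tested), 11 lay on chromosome 11 (1076 genes tested) and 9 on chromosome 6 (638). A further 8 lay on chromosome 15 (506) and 5 on chromosome 5 (799). Those on chromosome 6 included the 4 called Gimap genes, which stand side by side. Genes of a chromosome are not independent, no test was made, and the part of the shifts in the calls was not tested.

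**Figure D5:**
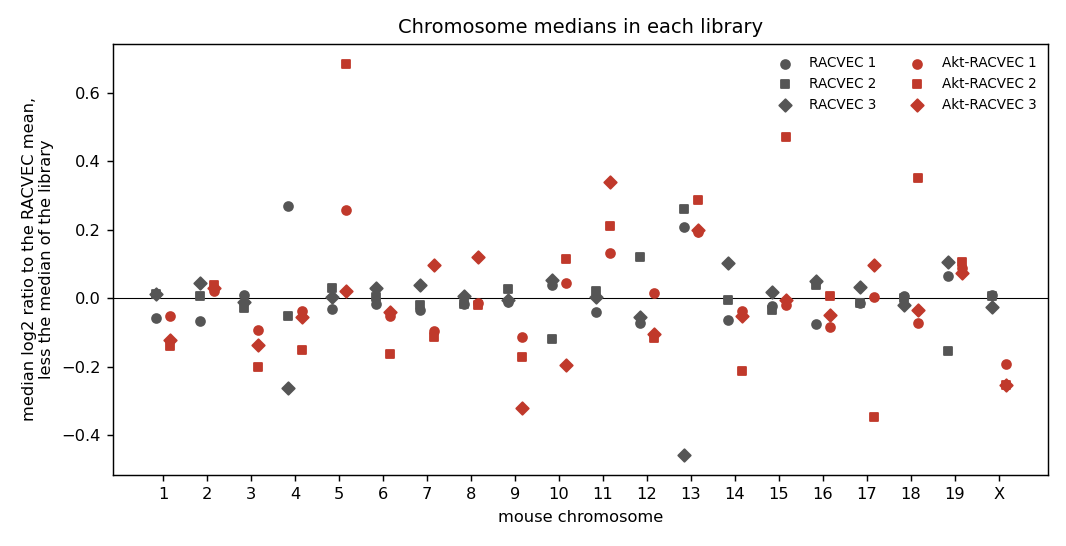
Median log2 ratio to the mean of the RACVECs, less the median of the library (vertical axis), for genes of each mouse chromosome (horizontal axis) in the 3 RACVECs (grey) and 3 Akt-RACVECs (red), a symbol for each library. Akt-RACVEC 2 stands at 0.69 on chromosome 5 and RACVEC 3 at -0.46 on chromosome 13. All Akt-RACVECs are above all RACVECs on chromosome 11 and below them on chromosomes 3, 6, 9 and X.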

How the data were processed

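RNA was sequenced by the authors as paired reads from TruSeq libraries, mapped with TopHat to the mouse build mm9 (spelled mmp9 in the methods) and quantified with Cufflinks. The authors deposited FPKM per RefSeq transcript, with upper-quartile normalization and bias correction; versions and annotation are not given in the sources used here. Each library lists 27583 transcripts, 26934 of which were joined to a current symbol, and summing gave 22282 genes. Of these, 15118 were above 0 in any of the 6 libraries and 13351 had a mean of at least 1. No 2 of the 24 libraries were identical. Standard errors rest on 1 moderated spread per gene, shared by all 24 libraries in 8 groups. An SD is that between 3 libraries.

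The log2(FPKM + 1) values of 24 libraries in 8 groups entered 1 linear model of limma 3.58.1 (R 4.3.3), whose variances were moderated along the mean. Tests were two-sided, and p was adjusted over all genes tested after Benjamini and Hochberg. Its p-values measure the spread within all 8 groups, among them the library labelled Sox17-RACVEC 2, which went against its label. With 3 libraries against 3 an exact permutation test cannot go below 0.1. Positions are from GENCODE M1 (mm9). Python 3.11.15, pandas 2.3.3, numpy 2.4.6 and matplotlib 3.10.9 were used for the rest.

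The genes named and the 30 gene lists were chosen with earlier results of these data known. Named were the transduced genes, those in the text of the study, the 15 largest calls in each direction without overlap, and up to 4 members of each list with the smallest p, 138 genes in all; further genes are marked in the text, and 1 named gene is not reported here. Alternatives were pseudocounts of 0.1 and 10, other filters, median scaling, transcripts kept apart, fits of only the compared libraries and a replicate block. Further ones were the criterion of the study's methods and leaving out each of the 6 compared libraries. For the difference of Akt effects each MAC and Akt-MAC library was left out as well. Libraries of the remaining groups, which enter the shared spread, were not left out singly.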

Additional observations from a re-analysis of the deposited data

Results flagged for a closer look

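The difference of the Akt effects between RACVECs and MACs was called for 4 genes. For Crp, at 0 in every MAC and Akt-MAC, a fall there could not be seen. Its difference is therefore the effect in RACVECs alone and cannot show that the Akt effects differ. The difference of log2 fold changes, RACVECs less MACs, was -6.69 for Trim14 (SE 0.88, adjusted p = 0.00529), -3.86 for H2bc13 (SE 0.53, adjusted p = 0.00567), -4.66 for Derl3 (SE 0.80, adjusted p = 0.0474) and -4.78 for Crp (SE 0.79, adjusted p = 0.0379). Trim14 and Derl3 were listed at 0 in every Akt-RACVEC, and Crp there and in every MAC and Akt-MAC, so that these values depend on the pseudocount of 1 and are no measure of size. H2bc13 was below 3 FPKM in every RACVEC and Akt-RACVEC. Groups of 3 libraries were not tested for outlying samples.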

How the results depend on the processing

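Of the 38 named genes that were called, all kept their sign under the alternatives that could be computed for them, which the separation of their libraries fixes in part. Among 100 named genes that were not called, Laptm5 (0.31) was the exception, at -0.11 without RACVEC 2 or RACVEC 3 and up to 1.16 without RACVEC 1. The counts were less stable. Genes called higher numbered 72, and 32 with a pseudocount of 0.1, 45 without a filter, 31 with median scaling and 245 by the criterion of the study's methods, which is unadjusted. Genes called lower numbered 15, and 5, 7, 8 and 273 under these settings, 29 at a mean FPKM of at least 10 and 8 with transcripts kept apart. Leaving out 1 of the 6 compared libraries gave 5 to 63 higher and 1 to 41 lower. Genes called for the difference of Akt effects numbered 4, and 1 with a pseudocount of 0.1 or 10. By limma at a mean of at least 10 there were 0 (smallest adjusted p 0.155, with 352 higher and 509 lower at a nominal p under 0.05). There were 2 with median scaling, 21 in a fit of 12 libraries and 2 to 108 without 1 library. With the replicate number as a replicate block and only the 6 libraries, limma called 0 higher and 0 lower, with 706 and 830 at a nominal p under 0.05 and a smallest adjusted p of 0.0572; for the difference of Akt effects the replicate block gave 1. Deviations of same-numbered libraries correlated at 0.21, 0.045 and -0.049, and those of differently numbered libraries at -0.24 to 0.12. With 3 libraries per group these values cannot decide whether the numbers pair the samples. Other counts stayed within 1.5 times, and where a count moved the cause was not tested.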

Other observations

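Xist and the Y-linked genes were also read in the other groups. Sox17-RACVECs, which derive from the same kind of culture, were at 97.3, 0 and 234 in Xist and had a summed FPKM of 0 of the 4 Y-linked genes in every library. The Akt-MACs were at 10.5, 117 and 163 in Xist, with Y-linked sums of 337, 107 and 61.4, and the MACs at 75.3, 0.27 and 188, with 2.35, 386 and 14.3. Both values were 0 in Akt-RACVEC 3 and the library labelled Sox17-RACVEC 2 and in no other of the 24 libraries. The karyotypes of the cultures were not analysed here.

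Red blood cell and erythroid genes were nearly absent, with 7 of 9 listed at 0 in all 6 libraries. Epor, the erythropoietin receptor, was the member tested and stood at 1.72, 0.91 and 23.2 in the RACVECs and at 102, 7.54 and 53.1 in the Akt-RACVECs, a log2 fold change of 2.85 that was not called (SE 1.39, adjusted p = 0.292). Krt19, a keratin of simple epithelia, was at 285, 129 and 1159 in the RACVECs and at 13.0, 38.7 and 0 in the Akt-RACVECs (log2 fold change -5.41, SE 1.86, adjusted p = 0.146), while Epcam, Cdh1 and Krt8 were at 0 in all 6 libraries and Krt18 was not.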
